A study of Mus musculus with 18 samples.

Results

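The regions described here are stretches of open chromatin that were listed in exactly 1 myoblast and 1 myocyte peak list, with the genotypes matched by the names of the peaks and not by the sample labels. ATAC-seq, in which a transposase cuts and tags accessible DNA, was applied to mouse skeletal muscle myoblasts and myocytes from wild-type and MyoD-null mice. There were 12 ATAC-seq samples, 3 in each of 4 groups. The groups were myoblasts of wild-type and of MyoD knockout genotype, and myocytes of both genotypes after 24 h of myogenic differentiation. Each group was deposited as 1 peak list from merged reads, so no value below carries an error between replicates and no test between groups was possible. How many mice gave the 3 samples of a group is not given in the sources used here, and the 6 RNA-seq samples of the series, from the C2C12 myoblast line with and without CTCF knockdown, were not analysed here.

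In both myocyte lists the genotype in the peak names is the opposite of the genotype in the sample labels. All 112032 peaks of the wild-type-labelled list carry names that read MyoD-null, and all 88235 peaks of the MyoD-null-labelled list carry names that read wild type. The names in the myoblast lists match the labels. A pair of sub-classes follows from the names. The wild-type-named regions were listed in wild-type myoblasts and in MyoD-null-labelled myocytes, and in neither of the other lists. The MyoD-null-named regions were listed in MyoD-null myoblasts and in wild-type-labelled myocytes, and in neither of the other lists. Below, the myocyte lists keep their deposited genotype and are called wild-type-labelled and MyoD-null-labelled. Which of the 2 records is right was not tested.

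MyoD is a basic helix-loop-helix transcription factor that binds E-box sequences, directs cells into the skeletal muscle lineage and can open closed chromatin at muscle enhancers. Proliferating myoblasts express it together with the related factor Myf5, which can take over part of its role when MyoD is missing. On differentiation, myoblasts leave the cell cycle, switch on myogenin and contractile genes, and become myocytes that later fuse.

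The members were chosen by presence or absence in the lists, that is, by whether a peak passed the peak caller's q limit of 0.01 in each list. Peaks on chromosomes 1 to 19 that shared at least 1 bp were merged into 139354 regions. Of these, 1188 were wild-type-named and 3099 were MyoD-null-named, together 4287 or 3.08% of all merged regions (95% Wilson interval 2.99 to 3.17, which like all intervals below covers counting error only). The wild-type-named regions made up 0.853% of the merged regions and the MyoD-null-named regions 2.22%, and these shares are fixed by the rule. The sub-classes are small parts of their lists. Wild-type-named regions held 1.24% of the peaks of wild-type myoblasts and 1.37% of the peaks of MyoD-null-labelled myocytes. MyoD-null-named regions held 3.10% of the peaks of MyoD-null myoblasts and 2.83% of those of wild-type-labelled myocytes.

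The surplus of MyoD-null-named regions went with the lengths of the lists. On chromosomes 1 to 19 wild-type-labelled myocytes had 109753 peaks, and MyoD-null-labelled myocytes had 86575. The myoblast lists had 96420 peaks in wild-type and 100192 in MyoD-null cells. After all lists were cut to 86575 peaks by −log10 p, the order of the sub-classes turned, with 2214 wild-type-named and 1535 MyoD-null-named regions. Nothing about the genotypes is read from which sub-class is larger.

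The same regions can be set beside those that follow genotype as deposited. Exactly the 2 lists labelled wild type shared 2510 regions, and exactly the 2 lists labelled MyoD-null shared 1142. Peak names thus accounted for 4287 of the 7939 regions that followed genotype under either reading, or 54.0% (52.9 to 55.1). The longest list enters 1 sub-class of each reading, so the cross ratio of the 4 counts is also given, in which each list enters once above and once below the line. It was 1.28, where 1 would mean that neither pairing of the lists was favoured. Regions shared by both myoblast lists alone (6522) and by both myocyte lists alone (4713) were more numerous than any of these 4 sub-classes.

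The balance between the readings differed with the strength of the peaks when strength was required only in the lists that held the region. With all lists cut, the share by peak names stayed near its value at a fixed fold and was higher at a stricter q limit. Strength was measured as the fold enrichment at the summit, the authors' ratio of reads to the local background, and was ranked as a percentile within its own list. With both percentiles at 25 or higher, 1242 regions followed genotype by peak names and 882 as deposited, a share of 58.5% (56.4 to 60.6). With both at 50 or higher, 41 wild-type-named and 91 MyoD-null-named regions were left, beside 28 and 11 regions that followed the deposited wild-type and MyoD-null labels. The share by peak names was then 77.2% (70.3 to 82.8) and the cross ratio 12.1. With both at 60 or higher there were 40 regions by peak names and 3 as deposited, and with both at 70 or higher 13 and 0. Among regions with a −log10 q of at least 12 in both lists, 51 followed the peak names and 6 the deposited labels. These cuts on strength were chosen after the values had been seen, and with lists of equal length the share at the 50th percentile was 78.2%. The cuts use folds from the lists that chose the regions, so these shares are a description and not a test of either record. When all peaks with a fold under 5 were instead removed from all lists, so that a weaker peak no longer counted as presence, the share was 53.9% of 2126 regions, beside 54.0% without this cut. With q at 1e-5 or lower in all lists the share was 57.6% of 7271 regions. The same q limit only in the lists that held the region gave 57.8% of 4471.

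**Figure D1:**
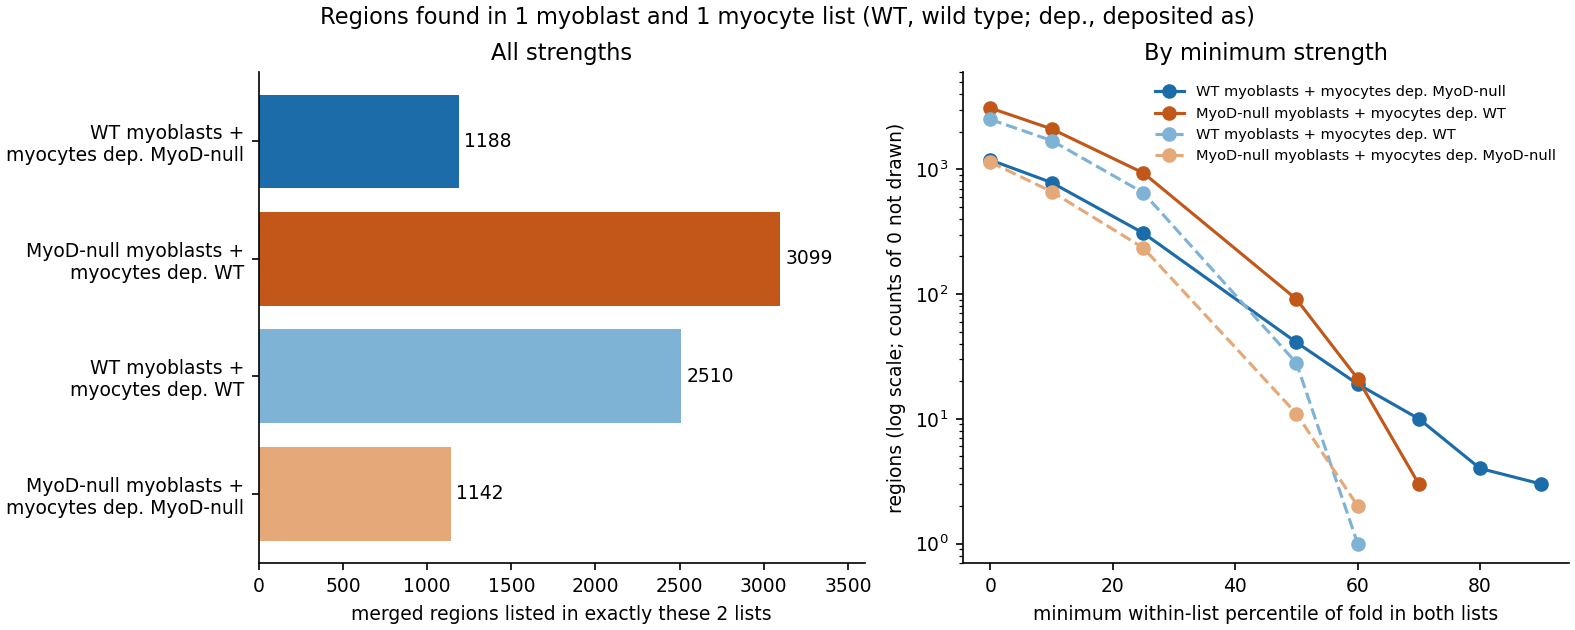
Left, number of merged regions listed in exactly 1 myoblast and 1 myocyte list, for the pairings by peak names (dark bars) and as deposited (pale bars). Right, the same 4 counts on a log axis against the minimum percentile of fold enrichment required in both lists: the pale dashed lines end at the 60th percentile with 1 and 2 regions, and the dark lines go on to the 70th and 90th percentiles with 3 regions each.

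Members had lower median folds than all regions listed in the same pair of lists, and most were weak in the myoblast list. The regions that followed the deposited labels were weak in the myoblast list too. In wild-type-named regions the fold enrichment ran from 1.88 over a median of 2.96 to 9.80 in wild-type myoblasts. In MyoD-null-labelled myocytes it ran from 1.91 over a median of 3.42 to 10.9. In MyoD-null-named regions the lowest, median and highest folds were 1.69, 2.93 and 5.15 in MyoD-null myoblasts, and 1.72, 3.94 and 13.8 in wild-type-labelled myocytes. For comparison, all 72085 regions listed in both wild-type myoblasts and MyoD-null-labelled myocytes had median folds of 4.19 and 4.81. All 76214 regions listed in both lists of the other pair had 4.09 and 5.46. Of the wild-type-named regions, 58.9% lay in the lowest 25% of the wild-type myoblast list by fold, and 59.2% of the MyoD-null-named regions lay in the lowest 25% of the MyoD-null myoblast list. In the myocyte lists the corresponding shares were 49.5% and 37.8%. Above the 75th percentile of wild-type-labelled myocytes lay 9.39% of the MyoD-null-named regions. The regions that followed the deposited wild-type and MyoD-null labels had median folds of 2.94 and 2.90 in their myoblast lists. In their myocyte lists the medians were 3.83 and 3.27. Of these regions, 63.5% and 62.7% lay in the lowest 25% of the myoblast list, and 39.4% and 59.8% in that of the myocyte list.

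The reads behind these values were few. The whole number of reads at a summit could be worked out from the deposited fold and p-value for each peak. The median was 31 reads in wild-type myoblasts and 29 in MyoD-null-labelled myocytes for the wild-type-named regions. It was 32 in MyoD-null myoblasts and 30 in wild-type-labelled myocytes for the MyoD-null-named regions. Where the local background equalled the genome-wide one, the fewest reads of a listed summit numbered 20 for wild-type and 21 for MyoD-null myoblasts. The myocyte minima were 15 reads in the wild-type-labelled and 17 in the MyoD-null-labelled list. Absence from a list therefore means that a region was not detected at this depth, not that it was closed.

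Few members stood far above the limit of the list that lacked them. The lowest fold listed at the genome-wide background was 2.29 for wild-type and 2.31 for MyoD-null myoblasts, and 2.55 and 2.45 in wild-type-labelled and MyoD-null-labelled myocytes. A member's folds were divided by the limit of the other list of the same stage, and the smaller of the 2 ratios was kept. Its median was 1.23 in wild-type-named and 1.28 in MyoD-null-named regions. It reached 1.5 in 115 of 1188 (9.68%) and in 384 of 3099 regions (12.4%). In the regions that followed the deposited wild-type and MyoD-null labels it reached 1.5 in 233 of 2510 (9.28%) and 76 of 1142 (6.65%). It reached 2 in 10 wild-type-named and 5 MyoD-null-named regions, beside 0 and 1 of the regions that followed the deposited wild-type and MyoD-null labels. The local background of the list without the peak is unknown, so these ratios hold for a site at the genome-wide background.

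Folds were higher in the myocyte list of a pair, in members as in other regions. Among wild-type-named regions, 139 of 1188 (11.7%, 9.99 to 13.7) had a fold at least 1.5 times higher in MyoD-null-labelled myocytes than in wild-type myoblasts, and 2 had the opposite. Over all regions listed in both lists, 9.36% and 0.692% passed the same limit. Among MyoD-null-named regions, 1084 of 3099 (35.0%, 33.3 to 36.7) were at least 1.5 times higher in wild-type-labelled myocytes than in MyoD-null myoblasts, and 2 were higher in the myoblasts by that factor. Over all regions in that pair of lists the shares were 25.9% and 0.684%. The median ratio of myocyte to myoblast fold was 1.17 in wild-type-named regions, against 1.14 over all regions of the pair, and 1.33 in MyoD-null-named regions, against 1.26. The myocyte lists also had a lower background (5.29 and 6.34 reads at a summit, against 8.18 and 8.54 in the myoblast lists), and its part in the difference was not tested. A prefix stands before the peak names of the myocyte lists and is missing in the myoblast lists, so the stage cannot be told apart from a difference in how the lists were made.

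**Figure D2:**
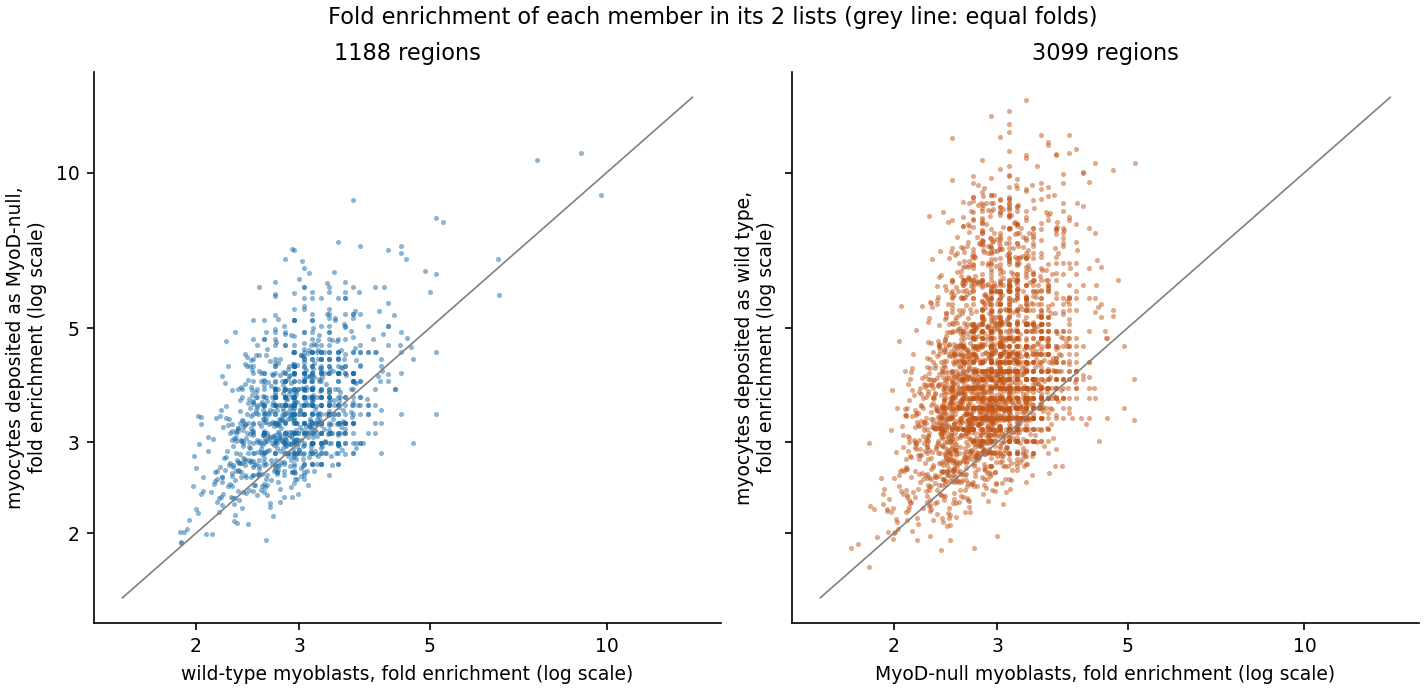
Fold enrichment of each wild-type-named region (left, 1188 points) and each MyoD-null-named region (right, 3099 points) in its myoblast list (x axis) and its myocyte list (y axis), both on log scales. Most points lie above the grey line of equal folds, and 3 wild-type-named regions have folds above 7 in both lists.

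Members were narrow, and the median distance between their 2 summits was larger than over all regions of the same pairs. The median width of the merged region was 354 bp (210 to 1211) for wild-type-named and 388 bp (204 to 1827) for MyoD-null-named regions. Regions that followed the deposited wild-type and MyoD-null labels had median widths of 384 and 343 bp. In 1183 of 1188 and in 3087 of 3099 regions each list contributed a single peak. The summits of the 2 lists were a median of 59 bp apart in wild-type-named and 56 bp apart in MyoD-null-named regions, and 74.2% and 74.3% were within 100 bp. Over all regions listed in the same pairs of lists the median distance was 45 bp in each pair. Members had to overlap between lists and their peaks were narrow, which limits how far apart the summits can lie. How much of the distance follows from the rule was not tested. The regions that followed the deposited wild-type and MyoD-null labels had median distances of 57 and 53 bp.

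The strongest wild-type-named region, by the lower of its 2 percentiles, lay on chromosome 4 at 88409308 to 88409884 (mm9). It had a fold of 9.04 from 82 reads in wild-type myoblasts and of 10.9 from 113 reads in MyoD-null-labelled myocytes, with summits 6 bp apart. A second member lay nearby at 88403047 to 88404017, with folds of 9.80 (124 reads) and 9.04 (135 reads) and summits 12 bp apart. Between them lay another at 88406356 to 88406700, with 6.55 (96 reads) and 5.80 (107 reads). These 3 members were consecutive merged regions within 6.84 kb, and neither MyoD-null myoblasts nor wild-type-labelled myocytes listed a peak there.

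The nearest peaks around this group had other patterns. Towards lower coordinates, all lists held a peak at 21.8 to 21.9 kb from the centre of the group. Its fold in myoblasts was 3.70 with MyoD and 4.51 without it, and it was 6.36 and 4.09 in wild-type-labelled and MyoD-null-labelled myocytes. Another peak of all lists, 38.3 kb from the centre, had folds of 7.76, 8.39, 9.41 and 7.81 in the same order. Between them lay a peak of both myocyte lists and a peak of wild-type-labelled myocytes alone. On the other side no list held a peak up to 50 kb from the centre.

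**Figure D3:**
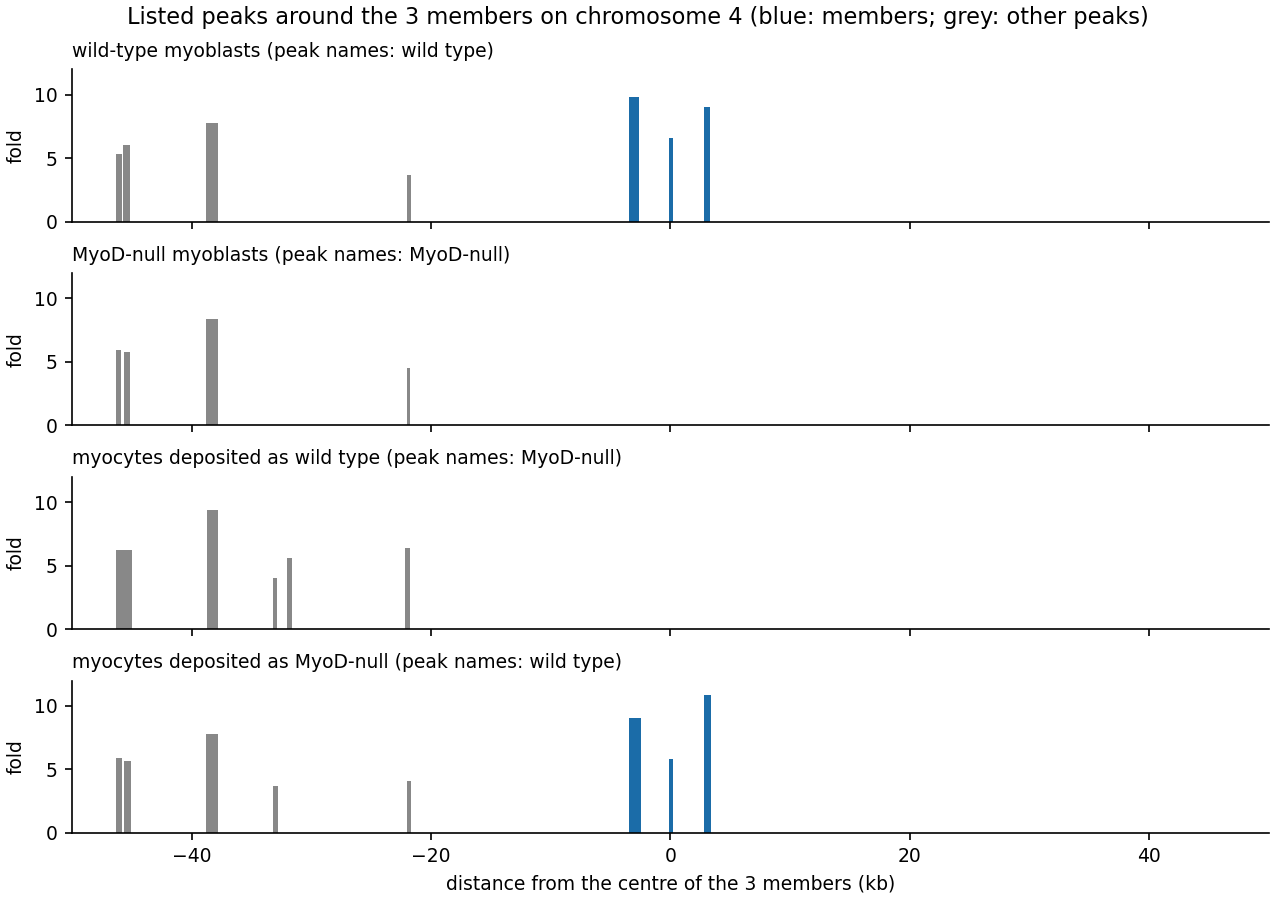
Peaks of the 4 lists within 50 kb of the 3 wild-type-named regions on chromosome 4, drawn as bars at their distance from the centre of the group (kb), with the peak's width and a height equal to its fold enrichment. The 3 members (blue, folds of 5.80 to 10.9) occur in the first and the last row, and the flanking peaks 21.8 to 21.9 kb and 38.3 kb away (grey) occur in all 4 rows.

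The remaining strongest wild-type-named regions were on 5 chromosomes. The member on chromosome 5 at 105000361 to 105001102 had folds of 7.63 (69 reads) in wild-type myoblasts and 10.6 (101 reads) in MyoD-null-labelled myocytes. On chromosome 11, the member at 31069149 to 31070359 had 6.54 (59 reads) and 6.81 (49 reads), and the member at 29579797 to 29580332 had 5.12 (46 reads) and 6.37 (51 reads). These were followed on chromosome 7 by 46910422 to 46911277, with 5.26 (53 reads) and 8.02 (85 reads). Chromosome 6 gave a member at 115505331 to 115506080, with 5.13 (50 reads) and 8.15 (66 reads), and a member at 114566681 to 114566976, with 5.01 (45 reads) and 5.86 (42 reads). The last of the 10 was on chromosome 4 at 133496276 to 133497055, with 4.90 (44 reads) and 6.44 (64 reads). In all 10 the summits of the 2 lists were between 5 and 120 bp apart.

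The 10 strongest MyoD-null-named regions had myoblast folds of 4.30 to 5.15, beside 4.90 to 9.80 in the 10 strongest wild-type-named regions. The first lay on chromosome 15 at 37115823 to 37116387, with a fold of 5.15 (51 reads) in MyoD-null myoblasts and 10.4 (66 reads) in wild-type-labelled myocytes. The second, on chromosome 11 at 32853652 to 32854087, had 4.72 (44 reads) and 10.1 (71 reads). The third, on chromosome 7 at 79536259 to 79536580, had 4.82 (45 reads) and 6.20 (38 reads), with summits 2 bp apart. A member on chromosome 5 at 124047243 to 124047898 had 4.40 (41 reads) and 10.4 (106 reads), and another on chromosome 7 at 100087563 to 100088321 had 4.30 (40 reads) and 9.57 (62 reads).

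The other 5 of these 10 strongest regions had folds of 4.30 to 4.51 in MyoD-null myoblasts and 6.05 to 7.64 in wild-type-labelled myocytes. They lay on chromosome 15 at 67040823 to 67041906, chromosome 4 at 41719883 to 41720168 and at 85016885 to 85017564, chromosome 17 at 35448332 to 35448803, and chromosome 12 at 37016105 to 37016602. In the region on chromosome 15 from 67040823 the summits of the 2 lists were 740 bp apart. In the other 9 the summits were 2 to 103 bp apart.

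The weakest members lay just inside the q limit. The weakest wild-type-named region, on chromosome 8 at 127893598 to 127894057, had a −log10 q of 2.35 from 22 reads in wild-type myoblasts and of 9.65 from 30 reads in MyoD-null-labelled myocytes. The next were on chromosome 16 at 33669260 to 33669543 and chromosome 19 at 47259156 to 47259529, with −log10 q values of 2.36 and 2.42 in wild-type myoblasts. The weakest MyoD-null-named region, on chromosome 6 at 82805409 to 82805834, had 2.12 from 25 reads in MyoD-null myoblasts. It was followed by chromosome 11 at 61461101 to 61461453 and chromosome 10 at 94857417 to 94857927, with 2.23 and 2.34 in wild-type-labelled myocytes.

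The regions nearest the limit on the outside were kept out by a weak peak in a further list. On chromosome 11 at 96817392 to 96817879, a peak with a −log10 q of 2.27 from 20 reads in wild-type-labelled myocytes kept a region out of the wild-type-named class. The regions on chromosome 3 at 108261579 to 108262145 and on chromosome 2 at 84908023 to 84908534 were kept out by MyoD-null myoblast peaks of 2.44 each. For the MyoD-null-named class, the 3 regions nearest the limit were kept out by wild-type myoblast peaks with −log10 q values of 2.18 from 20 or 21 reads. They lay on chromosome 19 at 25197676 to 25198154, chromosome 1 at 135902960 to 135904043 and chromosome 2 at 156123888 to 156124733. In all, 6884 regions had the 2 lists of the wild-type-named class and exactly 1 more, and 9102 had those of the MyoD-null-named class and 1 more. The peaks in the further list had a median −log10 q of 9.49 and 7.26, so most of these regions were not kept out narrowly.

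In the myoblast lists the names and the labels carry the same genotype. Regions specific to 1 myoblast genotype were followed into the myocyte lists by their myoblast strength alone. Of all 139354 merged regions, 11244 were listed in MyoD-null-labelled and not the other myocytes, and 34939 in wild-type-labelled and not the other myocytes. Of the 11653 regions listed in wild-type and not in MyoD-null myoblasts, 10.2% were found only in MyoD-null-labelled myocytes, which makes them wild-type-named, and 21.5% only in wild-type-labelled myocytes, the longer list. In the lowest 25% of the wild-type myoblast list by fold these shares were 9.37% and 21.4% of 7467 regions. Between the 50th and 75th percentiles they were 13.6% (11.0 to 16.8) and 20.7% (17.5 to 24.4) of 535. Above the 75th percentile, 11 of 22 regions were found only in MyoD-null-labelled myocytes, 0 only in wild-type-labelled myocytes, and 11 in both. Those found only in MyoD-null-labelled myocytes included the 3 neighbouring members within 6.84 kb on chromosome 4, which the intervals count as independent.

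Regions specific to MyoD-null myoblasts were found more in wild-type-labelled myocytes, the longer list, in each of the 4 ranges of strength. Of the 14209 regions listed in MyoD-null and not in wild-type myoblasts, 21.8% were found only in wild-type-labelled myocytes, which makes them MyoD-null-named, and 8.04% only in MyoD-null-labelled myocytes. Between the 50th and 75th percentiles these shares were 25.7% (22.7 to 29.0) and 9.52% (7.61 to 11.8) of 746 regions. Above the 75th percentile, 3 of 7 regions were found only in wild-type-labelled myocytes, 0 only in MyoD-null-labelled myocytes, 2 in both and 2 in neither. Few regions lay above the 75th percentile, and the lengths of the myocyte lists enter all of these shares.

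**Figure D4:**
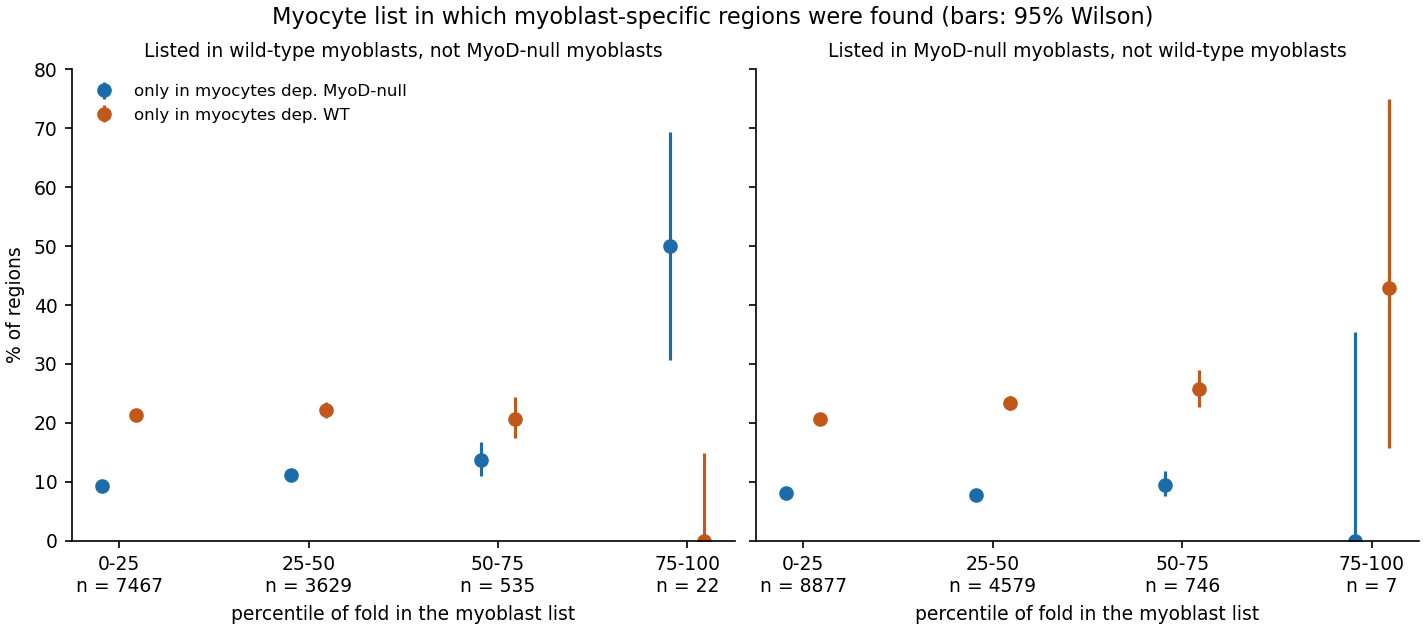
Percentage of regions specific to wild-type (left) or MyoD-null (right) myoblasts that were found only in MyoD-null-labelled myocytes (blue) or only in wild-type-labelled myocytes (orange), by percentile of fold within the myoblast list in steps of 25, with 95% Wilson intervals and the number of regions. Above the 75th percentile on the left the order turns, with 50% blue and 0% orange of 22 regions. The blue regions there include the 3 neighbouring members within 6.84 kb on chromosome 4.

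The same counts were made from the myocyte side. Like the counts from the myoblast side, they use the lists that define the members, so they do not test which record is right. Of the 205 regions above the 75th percentile of MyoD-null-labelled myocytes that the other myocytes lacked, 26 (12.7%, 8.80 to 17.9) were found only in wild-type myoblasts and 6 (2.93%, 1.35 to 6.24) only in MyoD-null myoblasts. In the lowest 25% of that list the shares were 9.60% and 11.2% of 6125. For wild-type-labelled myocytes, 291 of 2703 such regions (10.8%, lower bound 9.65) were found only in MyoD-null myoblasts and 162 (5.99%, upper bound 6.95) only in wild-type myoblasts. In the lowest 25% of this list the shares were 8.25% and 6.97% of 14182.

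Regions listed in all 4 groups allowed the same comparison by fold instead of presence. At these 64013 regions, the log2 ratio of wild-type to MyoD-null myoblast folds was set against the log2 ratio of the folds in MyoD-null-labelled myocytes to wild-type-labelled myocytes. These ratios share no list. Across regions, which are not independent replicates, Pearson's r was 0.019 and Spearman's rho 0.0029. Among the 157 regions with a fold at least 1.5 times higher in MyoD-null myoblasts relative to the median ratio, 36 were also at least 1.5 times higher in wild-type-labelled myocytes, and 10 were higher in the others by that factor. Among the 162 regions at least 1.5 times higher in wild-type myoblasts, 19 were higher by that factor in MyoD-null-labelled myocytes and 20 in wild-type-labelled myocytes. The number passing this factor over all 64013 regions is not given, so these counts have no share beside them and nothing is read from them. Above the median myocyte ratio, towards MyoD-null-labelled myocytes, lay 59 of the 157 regions (37.6%, 30.4 to 45.4). Of the 162 regions, 75 did (46.3%, 38.8 to 54.0), where 50% of all regions do by definition.

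Members were spread over all autosomes. The share of merged regions that were wild-type-named ran from 0.637% (0.449 to 0.903) on chromosome 18 to 1.15% (0.947 to 1.39) on chromosome 4, around 0.853% overall. For MyoD-null-named regions it ran from 1.77% (1.43 to 2.18) on chromosome 18 to 2.60% (2.30 to 2.93) on chromosome 1, around 2.22% overall. The intervals treat neighbouring regions as independent. Chromosomes 4 and 9 lay with their intervals above the overall wild-type-named share, as did chromosome 1 for the MyoD-null-named share, while chromosome 18 lay with its interval below the overall MyoD-null-named share.

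**Figure D5:**
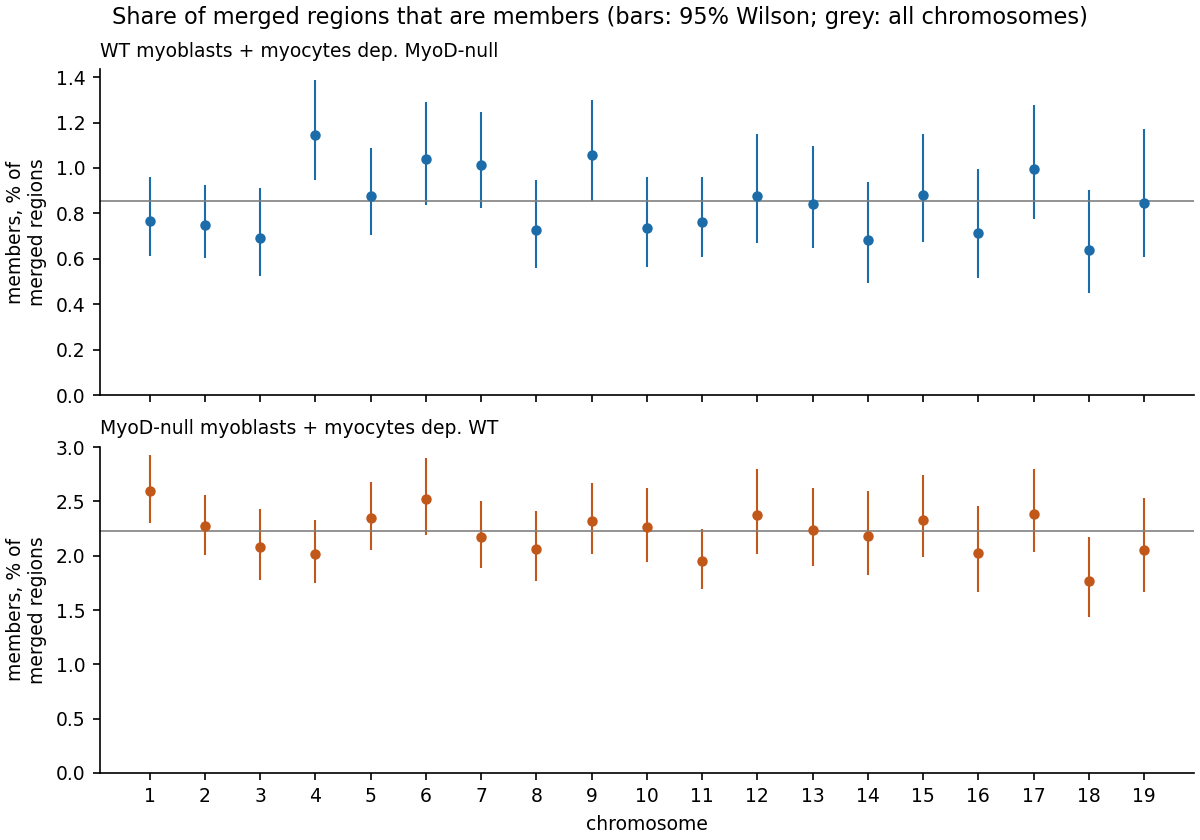
Percentage of the merged regions of each chromosome that were wild-type-named (top) or MyoD-null-named (bottom), with 95% Wilson intervals; the grey lines mark 0.853% and 2.22% over all chromosomes. The highest value on top is 1.15% on chromosome 4, and most intervals include the grey lines.

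Of 2332 windows of 1 Mb with any merged region, 805 held a wild-type-named and 1380 a MyoD-null-named region. The window with the most wild-type-named regions was on chromosome 3 from 52000001 to 53000000, with 7 of 132 merged regions. It was followed on chromosome 4 by the windows from 138000001 to 139000000 (6 of 132) and from 133000001 to 134000000 (6 of 143). The window with the most MyoD-null-named regions was on chromosome 6 from 108000001 to 109000000, with 11 of 95 merged regions or 11.6%, beside 2 wild-type-named regions. Next came the chromosome 4 window from 133000001, with 9 of 143, and chromosome 6 from 94000001 to 95000000, with 8 of 106, a count shared by 5 windows. The chromosome 4 window from 133000001 was thus among the 3 richest for both sub-classes.

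Some strong members lay near each other. Members were called strong where both percentiles were at least 50, and the distance of 1 Mb was chosen after the positions had been seen. Of the 41 strong wild-type-named regions, 17 had another within 1 Mb, against 10 of the 91 strong MyoD-null-named regions. Among strong regions that followed the deposited wild-type and MyoD-null labels these counts were 2 of 28 and 0 of 11. Of the 17, 3 were the group within 6.84 kb on chromosome 4. Chromosome 4 held 9 of the 41, chromosomes 6 and 11 held 6 each, and chromosome 9 held 5. Of all 139354 merged regions, chromosomes 4, 6, 11 and 9 held 9070, 7693, 9682 and 8152. The largest group had 4 strong members between 114444758 and 115506080 on chromosome 6, a span with 146 merged regions. Besides the 3 within 6.84 kb, there were 2 groups of 3. They lay on chromosome 11 between 30650019 and 31070359 (13 merged regions) and on chromosome 4 between 132527570 and 133716404 (191 merged regions). The median window of 1 Mb held 55 merged regions, so the groups on chromosome 6 and in this span of chromosome 4 lay where peaks were dense. On chromosome 5, the 2 strong members between 105000361 and 105289338 were the only merged regions in their span of 289 kb. No group of strong MyoD-null-named regions had more than 2 members.

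Over all strengths, few members had a neighbour of their own class. Only 41 of the wild-type-named regions (3.45%) and 133 of the MyoD-null-named regions (4.29%) were next to another merged region of their own class, beside 4.42% and 3.50% of the regions that followed the deposited wild-type and MyoD-null labels. The longest runs were 3 wild-type-named and 4 MyoD-null-named regions. The nearest region listed in all 4 groups was a median of 6350.5 bp from a wild-type-named and 7323 bp from a MyoD-null-named region. A peak of a list that lacked the region lay within 1 kb in 255 wild-type-named (21.5%) and 513 MyoD-null-named regions (16.6%). The share was 14.8% and 27.1% in the regions that followed the deposited wild-type and MyoD-null labels.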

How the data were processed

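Peaks were called with MACS2 and mm9 was the genome build, per the submitters' processing notes, which also name deepTools. The peak names in the deposited files refer to 1 merged alignment per group with a MAPQ30 tag. For the aligner, the caller settings and any shift of reads for the transposase the record is: not given in the sources used here. The deposited lists hold a fold enrichment (ratio), a −log10 p and a −log10 q for each peak, and a deposited score that repeats the −log10 q multiplied by 10 and was not used. The lowest −log10 q was 2.02.

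Peaks on chromosomes 1 to 19 were merged where they shared at least 1 bp, and the peak of highest fold stood for a list. The whole-number reads n and local background b were found that solve fold = (n + 1) / (b + 1) and give the Poisson p; the deposited −log10 p was met within 0.01 for all peaks. Depth per sample is unknown. Merging was checked on 20000 simulated regions and the read counts on 4971 simulated peaks, of which 99.3% were recovered. Wilson intervals came from statsmodels 0.14.6, scipy 1.17.1 gave Poisson tails, pandas 2.3.3 and numpy 2.4.6 handled the tables and matplotlib 3.10.9 drew the plots under Python 3.11.15. Coordinates are mm9 and count from 1.

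Members, tests and lists were chosen with earlier results of these data known. Named regions were, per sub-class, the 10 with the highest lower percentile, 3 at the limit on each side, and the 3 richest windows of 1 Mb. Gene tables of another build (GRCm38) were supplied, so genes, sequences and motifs were not analysed here, and repeats were not filtered out.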

Additional observations from a re-analysis of the deposited data

How the results depend on the processing

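No paired analysis was possible because each group was deposited as 1 merged list, and leaving out a replicate was not possible for the same reason. The share of regions following peak names, 54.0% as reported, was between 53.0% and 78.2% under all 11 alternatives. With q at 1e-5 or lower in all lists it was 57.6%. With that limit only in the lists that hold the region it was 57.8%, with 636 wild-type-named and 1947 MyoD-null-named regions. A fold of at least 5 in all lists gave 293 and 852, with a share of 53.9%, near the reported one. Lists of equal length gave 2214 and 1535 (55.2%), which turned the order of the sub-classes; fewer peaks entered from the longer lists. Chosen after the data were seen were a percentile of at least 50 in both lists (41 and 91, 77.2%), the same with lists of equal length (62 and 53, 78.2%), and folds at least 1.5 times the listing limit (115 and 384, 61.8%); fewer regions enter each of these. A reciprocal overlap of 50%, merged summits, a distance of 1 kb and chromosomes X and Y kept all counts within 1.5 times. Ranked by −log10 q, 9 wild-type-named and 8 MyoD-null-named regions were again among the 10 strongest. With windows of 500 kb or 2 Mb, 1 of the 3 richest windows was found again in each sub-class. Depth limits the absences, since members had medians of 29 to 32 reads.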

Other observations

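Chromosomes X and Y, which lie outside the rule for the members, are given apart, and neither reading was clearly favoured there. Of 132 regions on them that followed genotype under either reading, 58 or 43.9% (95% Wilson interval 35.8 to 52.5) followed the peak names and 74 the deposited labels. The 58 were 25 in wild-type myoblasts and the myocytes deposited as MyoD-null, and 33 in MyoD-null myoblasts and the myocytes deposited as wild type. The 74 were 58 in the 2 lists labelled wild type and 16 in the 2 lists labelled MyoD-null.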
